A study of Mus musculus with 9 samples.

Results

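The integrins and leukocyte adhesion molecules examined here are 31 genes of mouse peritoneal macrophages, taken by gene name from the array's own annotation. They are 31 of the 23880 named genes on the array and are read by 49 of its 55681 probes. The list holds 4 leukocyte integrins of the beta2 family (Itgal, Itgam, Itgax and Itgb2) and 15 integrin chains that bind matrix proteins. The rest are the lymphocyte-type chains Itga4, Itgae and Itgb7, 6 immunoglobulin-family adhesion molecules, Selplg, Cd44 and Cd47. Of the 31 genes, 25 were bright enough to test and 21 were well above background on all 9 arrays.

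RNA came from peritoneal macrophages of male mice that had been sorted by flow cytometry as CD45+ F4/80+ cells. Group Ctrl was cultured alone in regular medium for 24 h. Group T was co-cultured for 24 h with CT-26, a colon carcinoma cell line of the mouse, in the lower chamber of a Transwell, a well divided by a porous membrane. Group M held the migratory macrophages taken from the upper chamber above CT-26 cells, after a duration not given in the sources used here. Each group had 3 arrays. Titles and design text call M the migratory group, while the cell type field gives that term to T, and the groups here follow the titles. Strain, age and the number of animals are not given, and nothing in the labels ties the arrays of a group to separate animals or dishes. The p-values therefore cover the spread of these 3 samples per group alone, and that spread may be technical.

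An integrin is a pair of an alpha and a beta chain that spans the cell membrane and binds matrix proteins or other cells outside and talin, kindlin and the actin skeleton inside. Beta2 integrins occur on white blood cells, where LFA-1 (Itgal with Itgb2) binds ICAM proteins, and Mac-1 (Itgam with Itgb2) binds fibrinogen, complement fragments and ICAM-1. Beta1 and alpha v integrins bind collagens, laminins, fibronectin and vitronectin. Resident peritoneal macrophages are known for high Mac-1.

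Levels below are log2 of the processed probe signal minus the array's 75th percentile, so that a level of 0 equals that percentile. A level belongs to its probe, and levels of different genes or probes cannot be ranked against each other. Differences are group means of these levels with the SE of a limma fit to all 9 arrays, and a gene is said to rise or fall where its p, adjusted over 18252 genes, was under 0.05. In bulk RNA, fewer cells of a type and less RNA per cell cannot be told apart.

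For Itgam and Cd44 the result depended on which probe was read, so 6 probe sequences of these genes are printed here. They are given 5′ to 3′ from the array's sequence column, with positions on build mm9. The Itgam probes lie on chromosome 7 and the Cd44 probes on chromosome 2. In the first Cd44 probe, shown to its stop codon, the capitals mark that stop codon, and in the Itgam probe A_55_P1977934, of which bases 1 to 20 are shown, they mark a CA repeat.
Cd44 A_55_P2166501, chr2:102654278-102654337, minus strand: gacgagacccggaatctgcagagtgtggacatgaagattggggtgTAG
Cd44 A_55_P2166486, chr2:102672645-102672704, minus strand: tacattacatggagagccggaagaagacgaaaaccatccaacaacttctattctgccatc
Cd44 A_55_P2166488, chr2:102677971-102678030, minus strand: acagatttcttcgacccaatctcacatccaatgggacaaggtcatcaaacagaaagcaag
Itgam A_55_P1977926, chr7:135212140-135212199, plus strand: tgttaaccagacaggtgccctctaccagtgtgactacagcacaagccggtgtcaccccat
Itgam A_55_P1977929, chr7:135260275-135260334, plus strand: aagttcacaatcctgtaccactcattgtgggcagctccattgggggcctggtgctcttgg
Itgam A_55_P1977934, chr7:135261755-135261814, plus strand: CACACACACACACACACACA

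Of the 55681 probes on the array, 22 (0.0395%) hold a CA run at least 20 bases long, and the brightest Itgam probe is among them. Exons are not assigned to these positions here.

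The arrays differed in ways that touch the results. All Ctrl and M arrays lay on one slide and scan, and all T arrays on the other, so that for T minus Ctrl and M minus T the group and the slide cannot be told apart, while M minus Ctrl is a comparison within 1 slide. The share of probes well above background ran from 70.3% to 78.8% in Ctrl, 66.5% to 72.6% in T and 61.0% to 67.0% in M. Replicate spots varied with a median CV of 15.0% on M1 and 19.8% on M3, against 4.39% to 8.72% on the other arrays. The sort marker Adgre1, which encodes F4/80, was higher in M than in Ctrl by 2.86 ± 0.22 (SE, n = 3 and 3, adjusted p = 1.34e-05), and Ptprc, which encodes CD45, by 0.80 ± 0.20 (adjusted p = 0.0221), and both were above background on every array.

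In macrophages co-cultured with CT-26 cells (T), 11 of the 25 tested genes rose and 3 fell against Ctrl. Those that rose were Itgax, Itgav, Pecam1, Selplg, Itga5, Icam2, Itga7, Itga6, Itgb4, Icam1 and Itgb7, and those that fell were Itgb6, Itga1 and Itgb3. Over all genes tested, 17.6% rose and 27.2% fell in this comparison, 44.7% in either direction. The median difference of the 25 genes was 0.36, against -0.14 over all genes. The T and Ctrl arrays did not overlap for 14 of the 25, against 53.5% of all genes. Without Ctrl1 and Ctrl2, 4 were called higher and 0 lower, against 8.78% and 9.34% of all genes in that fit.

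In the migratory macrophages (M), 6 of the 25 rose and 2 fell against Ctrl. Itgax, Itgb4, Itgal, Icam2, Selplg and Itgb7 rose, and Itga3 and Icam1 fell. Over all genes, 12.2% rose and 11.1% fell, 23.4% in either direction. The median difference was -0.04 for the 25 genes and -0.09 for all genes, and arrays did not overlap for 11 of the 25, against 36.3% of all genes. A fit to the Ctrl and M arrays alone, which share a slide, called 6 higher and 2 lower, with Icam1 lost (adjusted p = 0.0932) and Itgb6 gained (adjusted p = 0.0216), against 7.65% and 4.63% of all genes. Itgb6 passed the brightness filter through Ctrl alone. Without M1 and M3, 3 were called higher and 0 lower, with M2 as the only array of its group, against 4.45% and 0.813% of all genes. Without Ctrl1 and Ctrl2, 2 were higher and 0 lower, against 5.11% and 1.98%.

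Set directly against T, the migratory macrophages were higher for 3 of the 25 genes (Itgal, Itga1 and Itgb4) and lower for 6 (Pecam1, Icam1, Itgav, Itga6, Itga4 and Itga3). Over all genes, 14.7% were higher and 10.8% lower, 25.5% in either direction. The medians were -0.02 for these genes and 0.11 for all genes, and 11 of the 25 did not overlap, against 48.4% of all genes. Without M1 and M3, 3 were higher and 3 lower, against 7.8% and 5.61% of all genes. With the authors' deposited value table, whose T2 column matched no scanner file, 0 were higher and 2 lower, against 4.12% and 3.59%. T minus Ctrl and M minus Ctrl share the Ctrl arrays, and their values are given side by side only.

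Scaling moved these splits. With each array centred on its median instead of its 75th percentile, the median difference over all genes became 0.28 in T minus Ctrl, where it had been -0.14, and 0.21 in M minus Ctrl, where it had been -0.09. The calls were then 14 higher and 2 lower in T, where 28.1% and 14.4% of all genes were, and 8 higher and 0 lower in M, where 16.7% and 5.72% of all genes were. Itga4, Cd44 and F11r then passed as higher in T (0.92, 0.64 and 0.78), and Itga5 and Itgav as higher in M (1.17 and 1.09).

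**Figure D1:**
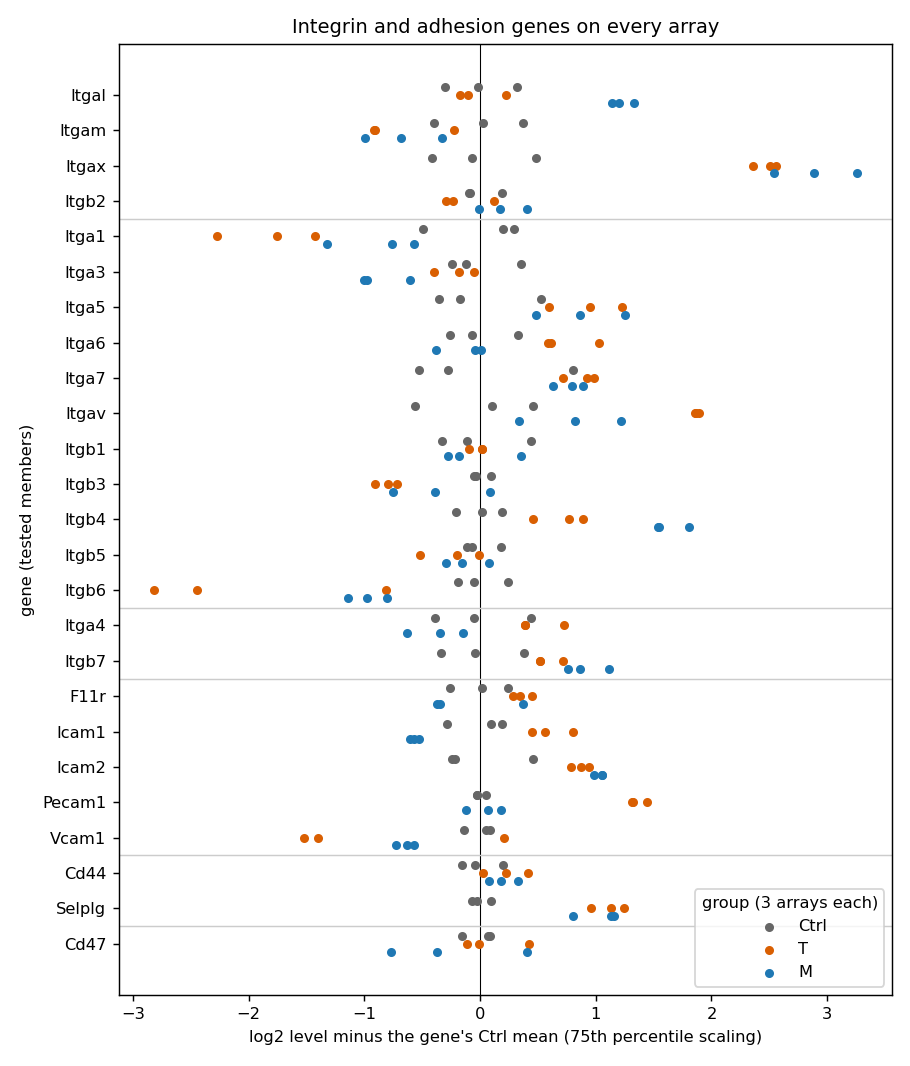
Level of each of the 25 tested genes on every array, as log2 level minus the gene's Ctrl mean (horizontal axis), with 1 row per gene and horizontal lines between functional classes. Points are single arrays, 3 per group. Itgax and Itgb4 stand to the right of Ctrl in both co-culture groups, Itgal only in M, and Pecam1 only in T.

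Among the beta2 integrins, Itgax, which encodes the alpha chain CD11c, rose in both co-culture groups. Its levels were -6.90, -7.25 and -6.35 on the Ctrl arrays, none well above background. They were -4.32, -4.48 and -4.28 in T and -3.57, -3.94 and -4.29 in M. Every co-culture array lay above every Ctrl array, and T and M overlapped. Itgax RNA was at least 4.38-fold higher in T than in Ctrl (adjusted p = 8.95e-05) and at least 5.88-fold higher in M (adjusted p = 3.09e-05). The bounds compare the mean of the brighter group with the lowest signal that counted as above background on the Ctrl arrays. Itgax passed the brightness filter through T and M alone. The adjusted p-values printed with these and later bounds come from the fit to the signals as measured and do not test the bound. M minus T was 0.42 ± 0.26 (adjusted p = 0.259). CD11c marks dendritic cells as well as macrophages. Of 6 dendritic cell markers 4 were tested, 0 rose and 2 (Flt3 and Zbtb46) fell in T, and none was called in M. Their summed log2 level ran from -0.69 to 0.38 in Ctrl, -1.04 to -0.68 in T and -0.99 to -0.58 in M, with Clec9a not above background on any array. Their part in the Itgax result was not tested.

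Itgal, the alpha chain of LFA-1, was higher in the migratory macrophages than in both other groups. It measured -1.18, -1.47 and -0.85 in Ctrl, -0.94, -1.27 and -1.34 in T, and -0.03, 0.16 and 0.03 in M. All 3 M arrays lay above the other 6, which overlapped. M exceeded Ctrl by 1.22 ± 0.20, a 2.34-fold difference (adjusted p = 0.00226), and T by 1.24 ± 0.20 (2.36-fold, adjusted p = 0.00158). T minus Ctrl was -0.01 ± 0.20 (adjusted p = 0.961). A nearby probe, A_55_P2184601, gave 1.62 ± 0.17 for M minus Ctrl (adjusted p = 0.00016 over probes) but -0.48 ± 0.17 for T minus Ctrl (adjusted p = 0.0375). The third, A_55_P2184606, lies at chr7:134474711-134474767, outside the span of the other two, and fell in T by 1.59 ± 0.41 (adjusted p = 0.0118). In M this probe differed from Ctrl by -0.66 ± 0.41 (adjusted p = 0.251). The M minus Ctrl call of Itgal was lost without M1 and M3 and without Ctrl1 and Ctrl2, and with the authors' deposited value table (adjusted p from 0.0533 to 0.0610 over these settings). With the deposited table the M minus T call of Itgal was lost as well (0.71, adjusted p = 0.269). LFA-1 is a lymphocyte integrin too. Of 10 T and NK cell markers 8 were tested, and 0 rose and 5 fell in T. In M against Ctrl, Cd3d alone passed the test, and no Ctrl or M array was above background for it. Their summed level was 0.54 to 1.66 in Ctrl, 0.30 to 0.60 in T and 0.42 to 0.78 in M, with Cd8a above background on no array. Of 8 granulocyte markers 7 were tested. In M, 2 of them (S100a8 and S100a9) exceeded Ctrl and 3 (these and Ngp, with S100a9 just under the threshold) exceeded T, and 0 were lower in either comparison, while 1 rose and 3 fell in T. The median difference of the 7 was -0.03 in M minus Ctrl, 0.84 in M minus T and -0.84 in T minus Ctrl. The summed level of the 8 was -0.98 to -0.04 in Ctrl, -0.20 to 0.15 in T and 1.43 to 1.45 in M, with Ly6g not above background on any Ctrl or M array. The part of either cell type in the Itgal result was not tested.

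Itgam, the alpha chain CD11b of Mac-1, gave opposite signs on its probes. The brightest, which begins with the CA repeat printed above, read 6.94, 6.59 and 6.17 in Ctrl, 6.34, 5.65 and 5.66 in T, and 5.57, 6.24 and 5.88 in M, and its T and M arrays overlapped those of Ctrl. Its differences were -0.68 ± 0.27 for T minus Ctrl (adjusted p = 0.0658) and -0.67 ± 0.27 for M minus Ctrl (adjusted p = 0.0951), and neither passed. With the replicate number as a block and only the T and Ctrl arrays, the same T difference of -0.68 passed (adjusted p = 0.0152). The probe A_55_P1977929, which also lies near the downstream end of the probed stretch, read 1.47, 1.68 and 1.79 in Ctrl, 2.52, 2.31 and 2.31 in T, and 2.48, 2.64 and 2.16 in M. Every co-culture array of that probe lay above every Ctrl array. It rose by 0.73 ± 0.19 in T (adjusted p = 0.0114 over probes) and by 0.78 ± 0.19 in M (adjusted p = 0.0237). A_55_P1977926, farther upstream, read -1.51, -0.93 and -0.86 in Ctrl, -0.20, -0.06 and -0.19 in T, and 0.32, 0.12 and 0.48 in M, and rose by 0.95 ± 0.21 in T (adjusted p = 0.00601) and 1.40 ± 0.21 in M (adjusted p = 0.00199). Thus the other 2 probes printed above rose in T and in M, while the brightest one was lower without passing. What makes the probes differ was not tested.

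Itgb2, the beta chain shared by these integrins, was called in no comparison. It read 4.62, 4.34 and 4.33 in Ctrl, 4.55, 4.14 and 4.20 in T, and 4.42, 4.84 and 4.60 in M. M minus T, its widest difference, was 0.33 ± 0.19 (adjusted p = 0.239), and the groups overlapped. Counted by the probe that stood for each gene, 1 of the 4 beta2 genes rose in T and 2 in M, against 17.6% and 12.2% of all genes, and none fell.

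**Figure D2:**
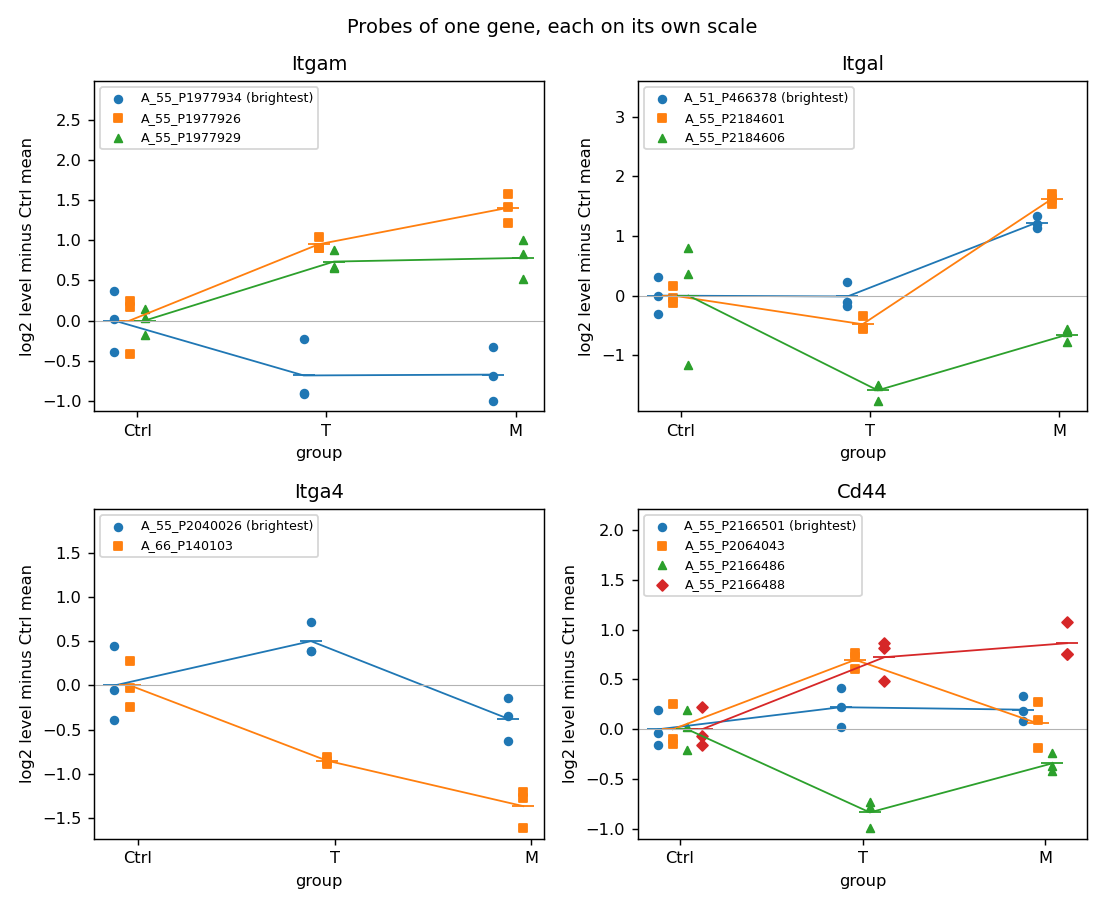
Probes of Itgam, Itgal, Itga4 and Cd44 on every array, as log2 level minus that probe's Ctrl mean (vertical axis), by group (horizontal axis). Points are single arrays, short bars are group means and lines join the means of 1 probe. The brightest Itgam probe lies below 0 in T and M while the other 2 lie above it, and the 4 Cd44 probes part in T.

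Of the 15 matrix-binding chains, 11 were tested. In T, 5 rose (Itgav, Itga5, Itga7, Itga6 and Itgb4) and 3 fell (Itgb6, Itga1 and Itgb3), 72.7% in either direction, against 44.7% of all genes. Itgb6 had passed the brightness filter through Ctrl alone. In M against Ctrl, Itgb4 rose and Itga3 fell, 18.2% against 23.4%. Their median difference was -0.02 in T and -0.13 in M. Itgb1, the beta chain that most matrix-binding alpha chains use, was not called in any comparison, with differences from Ctrl of -0.02 ± 0.24 in T and -0.04 ± 0.24 in M. Its second probe was not called either.

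Itgav, the alpha chain of the vitronectin receptors, had the widest rise of this class. It read -1.05, -0.03 and -0.38 in Ctrl, 1.37, 1.41 and 1.38 in T, and 0.74, -0.15 and 0.34 in M. The T arrays lay above all others, and M overlapped Ctrl. T exceeded Ctrl by 1.87 ± 0.29, or 3.66-fold (adjusted p = 0.000919). M minus T was -1.08 ± 0.29 (adjusted p = 0.0200) and M minus Ctrl 0.79 ± 0.29 (adjusted p = 0.0673). Its second probe, A_55_P2039771, rose in T by 1.67 ± 0.19 (adjusted p = 0.000231 over probes), and on that probe M also exceeded Ctrl, by 0.86 ± 0.19 (adjusted p = 0.0165). The M minus T call was lost on leaving out M2, M3, T1, T2 or T3 (adjusted p from 0.0512 to 0.0700).

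The beta chains that pair with alpha v did not rise with it. Itgb3 read -2.05, -2.03 and -1.91 in Ctrl, -2.71, -2.79 and -2.91 in T, and -2.75, -1.91 and -2.39 in M. T lay below every Ctrl array, by -0.81 ± 0.21 (adjusted p = 0.0125), and M spanned both. That call was lost without T3 (adjusted p = 0.0519) and under quantile and median scaling (adjusted p = 0.0517 and 0.186). The second Itgb3 probe, A_52_P553890, with 1 Ctrl value missing, was not called in T (-0.65 ± 0.42, adjusted p = 0.226 over probes). Itgb3 is also the platelet fibrinogen receptor's beta chain. Of 8 platelet and megakaryocyte markers 7 were tested, 4 rose and 2 fell in T, and 2 (Pf4 and Gp9) rose and 0 fell in M. The median difference of the 7 from Ctrl was 1.22 in T and -0.47 in M. Their summed level was 0.54 to 0.77 in Ctrl, 0.69 to 0.93 in T and 2.29 to 3.50 in M. Ppbp was not above background on any T array and Gp1ba on any M array, and the part of platelet RNA in these results was not tested.

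Itgb5, another alpha v partner well above background here, differed by -0.24 ± 0.19 in T (adjusted p = 0.325) and by -0.13 ± 0.19 in M (adjusted p = 0.641). Itgb6, which encodes an epithelial alpha v partner, read -6.01, -5.87 and -5.57 in Ctrl, -6.64, -8.64 and -8.27 in T, and -6.96, -6.62 and -6.79 in M. No T or M array was well above background for it, so Itgb6 passed the brightness filter through Ctrl alone. It was at least 1.61-fold lower in T than in Ctrl (adjusted p = 0.00451), and M minus Ctrl did not pass (adjusted p = 0.115). With normexp background correction the T call was lost (adjusted p = 0.167), as it was without Ctrl1 and Ctrl2 (adjusted p = 0.0541). Itgb8 was above background on no array.

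Among laminin receptors, Itgb4 rose in both groups. It read -0.12, -0.34 and 0.06 in Ctrl, 0.75, 0.32 and 0.63 in T, and 1.40, 1.67 and 1.41 in M. The 3 groups did not overlap, with Ctrl lowest and M highest. T exceeded Ctrl by 0.70 ± 0.19 (1.63-fold, adjusted p = 0.0127), M exceeded Ctrl by 1.63 ± 0.19 (3.1-fold, adjusted p = 0.000203), and M exceeded T by 0.93 ± 0.19 (1.90-fold, adjusted p = 0.00529). Without Ctrl2 or T3 the T call was lost (adjusted p = 0.0517 and 0.0530). The M minus T call was lost with the authors' deposited value table (0.59, adjusted p = 0.143). Itgb4 pairs with Itga6, which rose in T by a like amount and was not called in M against Ctrl.

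Itga6 read 0.58, 0.77 and 1.17 in Ctrl, 1.87, 1.45 and 1.43 in T, and 0.46, 0.85 and 0.80 in M. The T arrays lay above all others. T exceeded Ctrl by 0.74 ± 0.21 (adjusted p = 0.0189), and M minus T was -0.88 ± 0.21 (adjusted p = 0.0142). Leaving out Ctrl1, Ctrl2 or T1 ended the first call (adjusted p from 0.0589 to 0.0679), and leaving out M1 or T1 the second (0.0505 to 0.0517). Its other probe, A_55_P1958840, gave 0.75 ± 0.28 in T (adjusted p = 0.0506 over probes) and 0.86 ± 0.28 in M (adjusted p = 0.0572).

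Itga3 and Itga7 also pair with Itgb1 to bind laminin. Itga3 read -3.50, -3.98 and -4.10 in Ctrl, -3.91, -4.04 and -4.26 in T, and -4.86, -4.46 and -4.84 in M, the M arrays being lowest. M minus Ctrl was -0.86 ± 0.21 (adjusted p = 0.0188) and M minus T -0.65 ± 0.21 (adjusted p = 0.0447). The former was lost without Ctrl1, M1 or M3 (adjusted p from 0.0652 to 0.0737) and under median scaling (0.0646), and the latter without Ctrl2, M1, M3, T1, T2 or T3 (0.0619 to 0.132) and with the replicate number as a block (0.0555). Itga7 read -1.11, -0.86 and 0.23 in Ctrl, 0.13, 0.34 and 0.40 in T, and 0.30, 0.21 and 0.05 in M. Ctrl3 lay within the range of the T arrays. The T minus Ctrl difference of 0.87 ± 0.30 (adjusted p = 0.0388) failed on leaving out any array but Ctrl3 (adjusted p from 0.0502 to 0.138), and the M minus Ctrl difference of 0.77 ± 0.30 did not pass (adjusted p = 0.0857).

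Of the collagen receptors, Itga1 fell in T. It read -2.38, -2.28 and -3.07 in Ctrl, -4.0, -4.33 and -4.85 in T, and -3.90, -3.15 and -3.33 in M. Each T array was below every other array. T minus Ctrl was -1.82 ± 0.30, a 3.52-fold difference (adjusted p = 0.00134). M lay between the other groups, 0.93 ± 0.30 above T (adjusted p = 0.0437) and lower than Ctrl without passing (-0.88 ± 0.30, adjusted p = 0.0552, or 0.0489 with the replicate number as a block). The M minus T call was lost without Ctrl2, M2, M3, T2 or T3 (adjusted p from 0.0545 to 0.167). Itga2, the other collagen-binding alpha chain listed, was above background on 1 Ctrl array only and was not tested.

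Itga5, the alpha chain of the fibronectin receptor, read -0.69, -0.87 and 0.01 in Ctrl, 0.08, 0.43 and 0.71 in T, and 0.35, 0.74 and -0.03 in M. T exceeded Ctrl by 0.92 ± 0.29 (adjusted p = 0.0254) with no overlap, and M minus Ctrl was 0.87 ± 0.29 (adjusted p = 0.0525), with M3 within the Ctrl range. The T call was lost without Ctrl1, Ctrl2, T2 or T3 (adjusted p from 0.0705 to 0.0984). Itga8 and Itga9, which bind RGD proteins and tenascin or VCAM-1, were above background on no array.

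Of the lymphocyte-type chains, Itgb7 rose in both groups. Itgb7, which pairs with Itga4 or Itgae, read 3.32, 3.03 and 3.74 in Ctrl, 4.08, 3.88 and 3.88 in T, and 4.12, 4.48 and 4.22 in M. All T and M arrays lay above Ctrl. M exceeded Ctrl by 0.91 ± 0.21 (1.88-fold, adjusted p = 0.0141), and T exceeded Ctrl by 0.59 ± 0.21 (adjusted p = 0.0424). The T call failed on leaving out Ctrl1, Ctrl2, M1, M3, T1, T2 or T3 (adjusted p from 0.0533 to 0.153) and with the replicate number as a block over the 9 arrays (0.0684), and the M call without Ctrl2 (0.0583).

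Itga4, the alpha chain of VLA-4, which binds VCAM-1 and fibronectin, read 1.66, 2.0 and 2.49 in Ctrl, 2.44, 2.44 and 2.77 in T, and 1.91, 1.42 and 1.71 in M. M lay below T, by -0.87 ± 0.24 (adjusted p = 0.0223), and Ctrl overlapped both. Leaving out M2, M3, T2 or T3 ended this call (adjusted p from 0.0538 to 0.0946). Its second probe, A_66_P140103, fell against Ctrl in T (-0.85 ± 0.19, adjusted p = 0.00698 over probes) and in M (-1.36 ± 0.19, adjusted p = 0.00146), whereas the brighter one gave 0.50 ± 0.24 (adjusted p = 0.112) and -0.37 ± 0.24 (adjusted p = 0.264). Itgae was above background on 2 Ctrl, 2 T and 1 M arrays and was not tested. Of 6 B cell markers 3 were tested, 1 fell in T, 0 were called in M against Ctrl, and 2 (Cd79b and Cd79a) were lower in M than in T, as Itga4 was. Cd79b differed from T by -1.02 ± 0.31 (adjusted p = 0.0344) and Cd79a, above background on 1 M array, by -0.81 ± 0.26 (adjusted p = 0.0424). Pax5, the other tested B cell marker, was not called in M minus T and had the opposite sign (0.28 ± 0.29, adjusted p = 0.540). The summed level of the B cell markers was -1.13 to -0.39 in Ctrl, -0.99 to -0.87 in T and -1.78 to -1.40 in M, with Ms4a1 above background on no array. Their part in the Itga4 result was not tested.

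**Figure D3:**
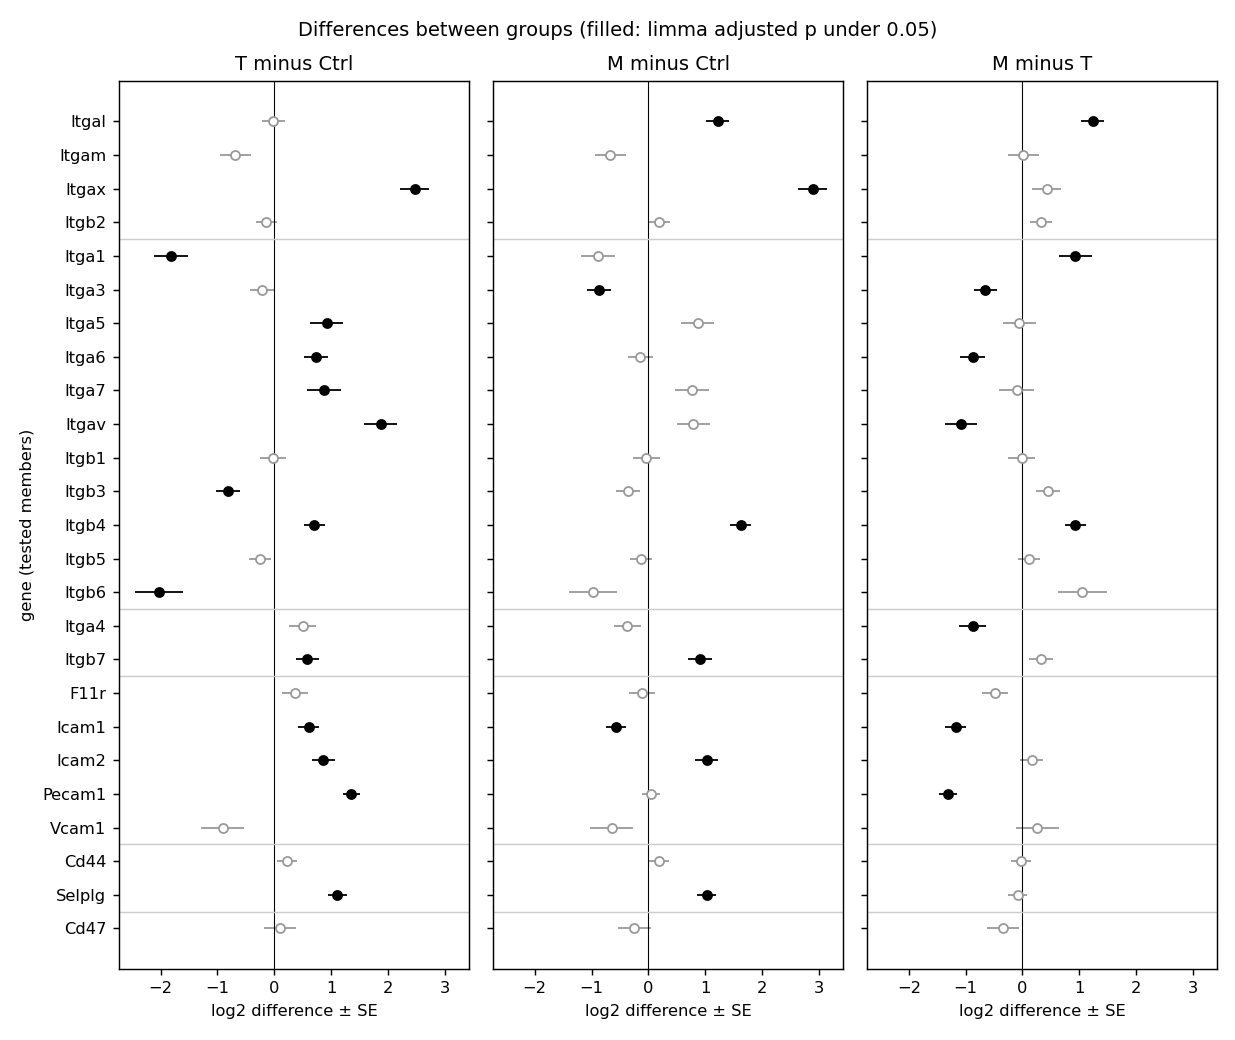
Differences of the 25 tested genes in the 3 comparisons, as log2 difference ± SE (horizontal axes), with genes in rows grouped by class. Filled points have a limma adjusted p under 0.05. Itgax and Itgb4 lie to the right in both comparisons with Ctrl, and Icam1 lies right in T minus Ctrl and left in both comparisons of M.

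Among the immunoglobulin-family molecules, Icam1, the counter-receptor of LFA-1 and Mac-1, was the one tested gene of the 25 called in opposite directions in T and M. It read 2.28, 1.79 and 2.18 in Ctrl, 2.89, 2.53 and 2.65 in T, and 1.55, 1.52 and 1.48 in M. The groups did not overlap, with T highest and M lowest. T exceeded Ctrl by 0.61 ± 0.18 (1.52-fold, adjusted p = 0.0219), and M lay below T (-1.17 ± 0.18, 2.26-fold, adjusted p = 0.00123). M minus Ctrl was -0.57 ± 0.18 (adjusted p = 0.0474). That last call was lost on leaving out any array but Ctrl2 (adjusted p from 0.0525 to 0.157), within the 1 slide of Ctrl and M fitted alone (0.0932), and under median scaling (0.399), while the T call was lost without Ctrl2, T1 or T3 (0.0628 to 0.0840).

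Icam2, another LFA-1 ligand, rose in both groups. It read 0.10, 0.07 and 0.77 in Ctrl, 1.26, 1.09 and 1.18 in T, and 1.30, 1.36 and 1.36 in M. Every co-culture array lay above Ctrl. The differences were 0.87 ± 0.20 in T (1.82-fold, adjusted p = 0.00769) and 1.03 ± 0.20 in M (2.04-fold, adjusted p = 0.00693). M minus T was 0.16 ± 0.20 (adjusted p = 0.602). Both calls were lost without Ctrl1 and Ctrl2 or, for M, without M1 and M3 (adjusted p from 0.127 to 0.146).

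Pecam1, a homophilic adhesion molecule of endothelium, platelets and leukocytes, was higher in T alone. It read -5.28, -5.28 and -5.19 in Ctrl, -3.94, -3.81 and -3.92 in T, and -5.37, -5.18 and -5.06 in M. T lay above all other arrays, and Ctrl and M overlapped. The Pecam1 signal was well above background on all Ctrl and T arrays but on only 2 M arrays. T exceeded Ctrl by 1.36 ± 0.15 (2.57-fold, adjusted p = 0.000159) and M lay below T (-1.32 ± 0.15, adjusted p = 0.000207). M minus Ctrl was 0.05 ± 0.15 (adjusted p = 0.843). Of 6 endothelial markers 5 were tested, and 0 rose and 2 fell in T, with a summed level of 1.38 to 1.88 in Ctrl, 1.08 to 1.33 in T and 1.26 to 1.51 in M. The endothelial cadherin Cdh5 was above background on no array. Of the 7 tested platelet and megakaryocyte markers given with Itgb3, 4 rose and 2 fell in T (median 1.22). The part of either cell type in the Pecam1 result was not tested.

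Vcam1, the ligand of VLA-4, read -4.97, -5.19 and -5.00 in Ctrl, -4.85, -6.45 and -6.58 in T, and -5.79, -5.63 and -5.69 in M, with 1 T array and no M array above background. T minus Ctrl was -0.91 ± 0.38 (adjusted p = 0.0774), and with the replicate number as a block and only T and Ctrl arrays it passed (adjusted p = 0.0388). It also passed without T1 (-1.46, adjusted p = 0.000614) and with array weights (-1.42, adjusted p = 0.00285). F11r, which encodes the junctional molecule JAM-A, had T arrays above all Ctrl arrays (0.36 ± 0.23), but did not pass (adjusted p = 0.224). Jam3 was above background on 1 Ctrl and 1 T array and was not tested.

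Selplg, which encodes the selectin ligand PSGL-1, rose in both groups on both of its probes. The brighter one read 0.25, 0.29 and 0.42 in Ctrl, 1.28, 1.57 and 1.45 in T, and 1.12, 1.45 and 1.48 in M. All co-culture arrays lay above Ctrl, and T and M overlapped. T exceeded Ctrl by 1.11 ± 0.17 (2.16-fold, adjusted p = 0.000913) and M by 1.03 ± 0.17 (2.04-fold, adjusted p = 0.00240). The probe A_55_P1976212 gave 0.94 ± 0.22 in T (adjusted p = 0.00697 over probes) and 0.92 ± 0.22 in M (adjusted p = 0.0207).

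Cd44, the hyaluronan receptor, was not called on its brightest probe, the one that reads the end of the coding sequence. That probe read 3.46, 3.57 and 3.81 in Ctrl, 4.02, 3.64 and 3.83 in T, and 3.69, 3.94 and 3.79 in M, with overlap in both comparisons. The other 3 probes were each called in T. A_55_P2064043 rose by 0.70 ± 0.19 (adjusted p = 0.0149 over probes) and A_55_P2166488 by 0.72 ± 0.19 (adjusted p = 0.0134), whereas A_55_P2166486 fell (-0.83 ± 0.18, adjusted p = 0.00497). The last one read -2.60, -2.78 and -3.01 in Ctrl, -3.52, -3.57 and -3.79 in T, and -3.03, -3.16 and -3.21 in M, so T was lowest without overlap. In M, A_55_P2166488 rose against Ctrl (0.86 ± 0.19, adjusted p = 0.0172), and the other probes did not pass.

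Of the 10 genes with at least 2 tested probes, Cd44 was the 1 whose probes were called in both directions in T. Itgav and Selplg were the 2 with every probe called in the same direction in T. In M against Ctrl, Selplg was the 1 gene with every probe called one way.

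Cd47, the ligand of SIRP alpha and a partner of beta3 integrins, was not called on its brightest probe, with 0.10 ± 0.28 in T (adjusted p = 0.794) and -0.24 ± 0.28 in M (adjusted p = 0.534). A dimmer probe, A_55_P2046822, rose in T by 1.22 ± 0.22 (adjusted p = 0.00238 over probes). It read -1.55, -1.28 and -0.72 in Ctrl, 0.00, 0.18 and -0.06 in T, and -0.80, -0.84 and -0.82 in M. The third Cd47 probe was not called.

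The beta2 and matrix-binding classes were set against each other within each array, as the mean level over the 4 beta2 genes minus the mean over the 15 matrix-binding genes, dim ones included. This value has no meaning in itself, because it joins different probes, and only its change between groups is read. It was 3.8, 3.36 and 3.48 in Ctrl, 4.33, 4.03 and 4.01 in T, and 4.30, 4.37 and 4.25 in M. Means were 3.55 ± 0.23, 4.12 ± 0.18 and 4.31 ± 0.06 (SD, n = 3 each). Both co-culture groups lay above Ctrl without overlap, by 0.57 in T and 0.76 in M, and M minus T was 0.19. The value rests in part on signals not above background. Those were Itgax on the Ctrl arrays, Itgb6 on the T and M arrays, and Itga8, Itga9 and Itgb8 on all arrays. Itga2 was above background on 1 Ctrl array only. In T minus Ctrl, Itgb6 (-2.03) and Itga2 (-1.86) had the widest falls of the matrix-binding class, and Itgav (1.87) the widest rise. No p-value is given for a summary over chosen genes.

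Without Itgax, the values were 6.39, 5.96 and 5.88 in Ctrl, 6.24, 5.86 and 5.79 in T, and 6.03, 6.29 and 6.20 in M, and all 3 groups overlapped. The difference became -0.11 for T minus Ctrl and 0.10 for M minus Ctrl. Over the genes well above background on all 9 arrays, which leave out Itgax, it was -0.48 and 0.08. With Itgam read by A_55_P1977929 instead of the repeat-bearing probe, it was 0.93 and 1.12. The sign of T minus Ctrl thus turned with the genes counted.

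**Figure D4:**
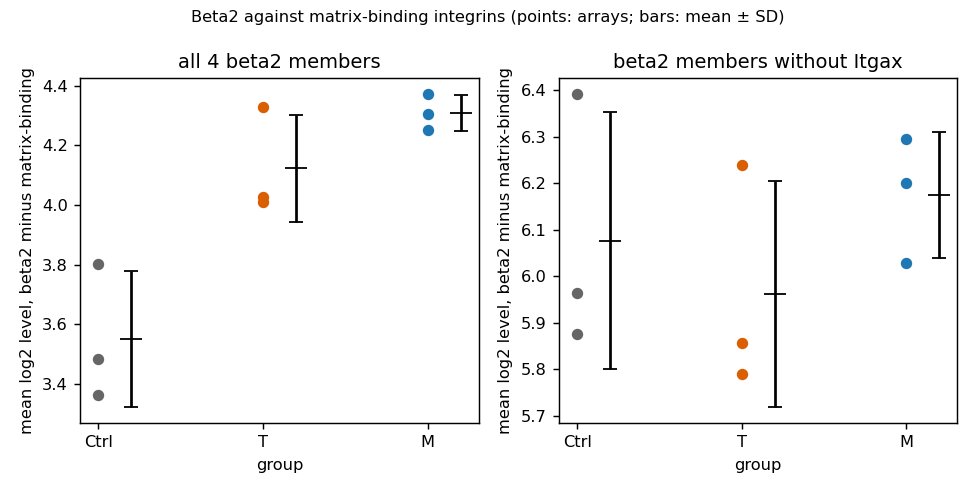
Mean log2 level of the beta2 integrins minus that of the matrix-binding integrins (vertical axes) on each array, by group, with all 4 beta2 genes at left and without Itgax at right. Points are arrays and bars are mean ± SD of 3 arrays. The left panel separates Ctrl (3.36 to 3.8) from T and M (4.01 to 4.37), and the right panel does not separate the groups.

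The inner machinery of integrins, from receptor activation to actin, was followed in a list of 38 genes, 37 of them tested. In T, 10 rose and 5 fell, against 17.6% and 27.2% of all genes, with a median difference of 0.04. In M 8 rose and 2 fell, against 12.2% and 11.1%, with a median of 0.18. Lims2, which encodes an adaptor of the integrin-linked kinase complex, rose in T by 2.24 ± 0.22 (adjusted p = 7.08e-05) and in M by 2.92 ± 0.22 (adjusted p = 1.12e-05). Bcar1, the docking protein p130Cas, rose most in T (2.36 ± 0.18, adjusted p = 1.20e-05), with levels of -0.17, -0.63 and -0.31 in Ctrl and 1.97, 1.93 and 2.09 in T, and was lower in M than in T (-1.24 ± 0.18, adjusted p = 0.000795).

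Fgr, a Src-family kinase that acts downstream of beta2 integrins in myeloid cells, read -3.06, -3.04 and -2.80 in Ctrl, -2.94, -2.89 and -3.01 in T, and 0.08, 0.04 and 0.29 in M. It was higher in M than in Ctrl by 3.11 ± 0.16 (adjusted p = 6.61e-07) and than in T by 3.09 ± 0.16 (adjusted p = 1.24e-06), and T overlapped Ctrl. The granulocyte markers given with Itgal were also higher in M by their summed level. The median difference of the 7 tested was -0.03 in M minus Ctrl, where 2 rose and 0 fell. In M, S100a8 exceeded Ctrl by 4.97 ± 0.22 (adjusted p = 2.86e-07) and T by 1.91 ± 0.22 (adjusted p = 0.000164). The part of these markers in the Fgr result was not tested. M against T gave 4 higher and 4 lower, against 14.7% and 10.8% of all genes, and Tgfb1i1, the paxillin relative Hic-5, was at least 1.09-fold lower in M, where it was above background on no array (adjusted p = 0.000380).

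Tln2, the talin less used in blood cells, fell in T (-3.08 ± 0.87, adjusted p = 0.0171) and in M (-2.73 ± 0.87, adjusted p = 0.0473). It read 0.50, -0.71 and -3.95 in Ctrl, so that Ctrl3 lay within the range of the M arrays (-4.41, -3.62 and -4.32). Parva, the actin-binding parvin alpha, also fell in T (-1.22 ± 0.38, adjusted p = 0.0244), and Itgb1bp1, which binds the beta1 tail, in M (-0.79 ± 0.21, adjusted p = 0.0279).

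Of 30 other integrins, selectins, tetraspanins and adhesion receptors, 23 were tested. In T 8 rose and 3 fell (median 0.11), against 17.6% and 27.2% of all genes. In M 7 rose and 2 fell (median 0.21), against 12.2% and 11.1%, and 3 were higher and 4 lower in M than in T, against 14.7% and 10.8%. Sirpa, the receptor of CD47, rose in T by 1.5 ± 0.18 (adjusted p = 0.000229) and in M by 2.59 ± 0.18 (adjusted p = 5.54e-06). It read -0.70, -0.53 and -0.23 in Ctrl, 1.07, 0.94 and 1.03 in T, and 1.90, 2.13 and 2.27 in M, with no overlap between the 3 groups. Cd36, a receptor of thrombospondin and oxidised lipids, rose in M by 2.61 ± 0.23 (adjusted p = 3.32e-05) and exceeded T by 1.90 ± 0.23 (adjusted p = 0.000274).

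Sdc4, a heparan sulfate proteoglycan of focal adhesions, rose in T (1.44 ± 0.19, adjusted p = 0.000432) and was lower in M than in T (-1.28 ± 0.19, adjusted p = 0.00106). Selp, P-selectin, which binds PSGL-1, was higher in M than in T by 2.76 ± 0.16 (adjusted p = 3.21e-06), and it is stored in platelets and endothelium, whose markers are given above. The neural cell adhesion molecule Ncam1 fell in T (-1.68 ± 0.38, adjusted p = 0.00651) and in M (-1.36 ± 0.38, adjusted p = 0.0320), the collagen-binding chain Itga10 fell in T (-0.89 ± 0.18, adjusted p = 0.00366), and Icam4, an ICAM of red cell precursors, was lower in M than in Ctrl (-1.18 ± 0.16, adjusted p = 0.000736) and T (-1.0 ± 0.16, adjusted p = 0.00163).

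Of 27 matrix and plasma ligands of these receptors, 18 were tested. In T 2 rose and 6 fell, against 17.6% and 27.2% of all genes, and their median of -0.14 equalled that of all genes to 2 decimals. In M 2 rose and 3 fell (median -0.23), against 12.2% and 11.1%, and 1 was higher and 2 lower in M than in T, against 14.7% and 10.8%. Col4a1, a basement membrane collagen chain, was above background only in T and passed the brightness filter through T alone. It was at least 3.97-fold higher in T than in Ctrl (adjusted p = 0.00015) and at least 2.21-fold higher than in M (adjusted p = 0.000116). Its partner chain Col4a2 fell in T (-1.14 ± 0.28, adjusted p = 0.00909), as did the fibrinogen chain Fgb (-1.24 ± 0.32, adjusted p = 0.0108).

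Ccn1, a matricellular ligand of alpha v beta3 and Mac-1, read -4.65, -5.35 and -5.26 in Ctrl, -3.02, -2.91 and -2.73 in T, and -5.59, -5.12 and -5.23 in M. It rose in T by 2.20 ± 0.22 (adjusted p = 7.86e-05), and M was lower than T (-2.42 ± 0.22, adjusted p = 4.39e-05). In M, Edil3, an RGD protein that binds alpha v integrins, rose by 2.56 ± 0.54 (adjusted p = 0.00986) and exceeded T by 1.98 ± 0.54 (adjusted p = 0.0234), and the laminin chain Lamc1 rose by 0.65 ± 0.19 (adjusted p = 0.0365). The laminin chain Lamb1 was at least 2.12-fold lower in M than in Ctrl (adjusted p = 0.0401), and Fga also passed as lower (adjusted p = 0.0221). No M array was above background for Fga, and its Ctrl level gave no bound of the kind used above, so no fold is given.

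Col4a1, Ccn1 and Itgb4 are also products of carcinoma epithelium. Of 10 epithelial markers 8 were tested, and 2 rose and 4 fell in T, while 0 were called in M against Ctrl. Krt19 rose in T by 3.63 ± 0.27 (adjusted p = 1.10e-05) and Epcam fell there (-1.60 ± 0.29, adjusted p = 0.00221). The summed level was 1.15 to 1.99 in Ctrl, 1.25 to 1.47 in T and 1.01 to 1.41 in M, with Cdh1 above background on no T or M array. Of 8 fibroblast and mesothelial markers 4 were tested, and 1 (Pdgfrb) rose and 1 fell in T, while 0 were called in M against Ctrl. Their summed level was -3.0 to -2.40 in Ctrl, -2.91 to -2.75 in T and -3.04 to -2.54 in M, with Dcn, Lum, Pdgfra and Upk3b above background on no array. The part of these cell types in the results was not tested.

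Promoters of 19 of the 31 genes could be matched in RefSeq (GRCm38.p6), as 22 sequences. The 250 bases before the start of Itgax, which rose in both groups, and of Icam1, which was called in opposite directions, are printed in lower case with motif matches in capitals. They lie at chr7:128129300-128129549 and chr9:21015690-21015939, both on the plus strand.
Itgax: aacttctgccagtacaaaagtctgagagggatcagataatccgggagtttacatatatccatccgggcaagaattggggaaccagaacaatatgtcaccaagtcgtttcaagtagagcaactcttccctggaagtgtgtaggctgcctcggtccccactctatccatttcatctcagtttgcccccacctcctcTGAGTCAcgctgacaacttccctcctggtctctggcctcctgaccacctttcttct
Icam1: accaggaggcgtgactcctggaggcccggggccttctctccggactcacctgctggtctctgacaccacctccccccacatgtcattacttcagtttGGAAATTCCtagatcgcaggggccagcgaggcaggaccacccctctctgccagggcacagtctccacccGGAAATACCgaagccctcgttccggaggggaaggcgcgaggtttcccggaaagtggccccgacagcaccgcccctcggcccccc

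The Itgax promoter holds 1 match of the AP-1 motif TGANTCA, at bases -56 to -50, and the Icam1 promoter holds 2 of the NF-kB motif GGNNNTTCC, at -153 to -145 and -84 to -76. Both strands were searched in 250 bases, and a GGNNNTTCC match followed by TC also holds the PU.1 core GAGGAA on the other strand. Among the 22 promoters of these genes, 3 (13.6%) hold the NF-kB motif, 8 (36.4%) the PU.1 core and 2 (9.09%) the AP-1 motif. Of all 32851 promoters of that length, 15.7%, 23.3% and 6.75% do. A match is a description of the letters and shows no binding.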

How the data were processed

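RNA of 9 samples was measured on 1-colour Agilent arrays with Cy3. Per the file headers and the submitters' processing notes, the authors read the scans with Agilent Feature Extraction 10.7.3.1. The deposited scanner files give for each spot a processed intensity, from which background had been subtracted, with no scaling between arrays, and probe positions on mm9. The deposited value table has no stated scale, and its columns, part of them log2 per the values, served only as an alternative. In it the M1 and M2 columns matched each other's scanner file best, and the T2 column equalled none.

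Control spots and 147 to 299 outlier spots per array were left out, spots of a probe averaged, log2 taken and the array's 75th percentile subtracted. A reference gene table (GRCm38.p6, used for names only) named 26762 probes through their unversioned accessions. A probe was tested if well above background on all 3 arrays of a group, and the brightest tested probe stood for its gene. A gene bright in a single group could pass through that group alone, which favours a call as higher in that group. Groups were fitted over 9 arrays with limma 3.58.1 (lmFit, eBayes) in R 4.3.3, with Benjamini-Hochberg adjustment over 18252 genes at 0.05, and separately over all tested probes where stated. The fit was tested on simulated data. No spot was saturated, and 3 arrays a group limit the precision.

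Every gene of the list is accounted for. Those called in any comparison have their value on every array, and for the 3 further gene lists the 2 widest calls of each direction were named per comparison, apart from a result that is not reported here. Which cell type markers are named singly was chosen after their values were seen. The genes, lists, classes and alternatives were chosen with earlier results of these data known. Alternatives covered background correction, scaling, filters, probe choice, the value table, array weights, left-out arrays and the replicate number as a block. Same-numbered T and Ctrl arrays deviated together to unlike degrees (r = 0.54, 0.12 and 0.37 over genes). This was read as possible pairing, though the labels give none and differently numbered arrays were not set beside them. The main fit has no pairing. M did not deviate with Ctrl (-0.27, -0.19 and 0.02) or with T (-0.27, -0.15 and 0.03).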

Additional observations from a re-analysis of the deposited data

How the results depend on the processing

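Of 31 calls of single genes, 8 were kept under each of the 22 to 24 alternatives that gave them a value, namely Itgax in T and M, Itgav, Pecam1 and Selplg in T, Itgb4 in M, and Icam1 and Pecam1 in M against T. Over the 25 tested integrin and adhesion genes and the 3 comparisons, 1551 values kept their side of the threshold, 125 calls were lost and 59 gained. Values that were not called did not always keep their sign, and Itgam in T against Ctrl ran from -1.04 to 0.33. Only 1 value was called against the direction of its main fit. It was Itgam in M against Ctrl, at 0.50 (adjusted p = 0.0398) as the mean of its probes. The cause of the changes was not tested.

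Counts in T minus Ctrl moved as follows. Fallen genes were 5 with no filter, 6 with array weights, 5 with the replicate number as a block over T and Ctrl arrays only, and 0 without Ctrl1 and Ctrl2, where 4 rose. In M minus Ctrl, fallen genes were 1 with normexp, with no filter and with every probe fitted on its own, 0 with median scaling and the deposited table, and 4 with array weights. Without M1 and M3, 3 rose and 0 fell, and without Ctrl1 and Ctrl2, 2 rose and 0 fell. In M minus T, 6 were higher with no filter, 8 with array weights and 0 with the deposited table, where 2 were lower, and 3 were lower without M1 and M3. The replicate block over 9 arrays gave 10 higher and 3 lower in T, 6 and 2 in M, and 3 and 5 in M against T.

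Leaving out 1 array gave 5 to 12 higher and 2 to 5 lower in T minus Ctrl, 5 to 8 and 0 to 4 in M minus Ctrl, and 2 to 5 and 3 to 6 in M minus T. Higher genes in T fell to 7 without Ctrl1 or T1, 5 without Ctrl2 and 6 without T3, and lower ones rose to 5 without T1. Lower genes in M minus Ctrl were 0 without Ctrl1, M1 or M3, 1 without T2 or T3 and 4 without Ctrl3. In M minus T, higher genes were 5 without T1, and lower genes 3 without M3, T1, T2 or T3.

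The beta2 minus matrix-binding difference lay between 0.47 and 0.70 in T, 0.67 and 0.89 in M, and 0.13 and 0.29 for M minus T with 1 array left out. In T it was -0.0174 with normexp, -0.48 over genes above background on all arrays, -0.11 without Itgax, 0.90 with the deposited table and 0.93 with Itgam by another probe. In M it was 0.49, 0.0816 and 0.10 under the first 3 of these, 1.12 with the other Itgam probe, 1.02 with quantile normalization, 1.01 with the mean of probes and 1.06 as class medians. M minus T was -0.14 with the deposited table, 0.51 with normexp, 0.56 above background on all arrays, 0.38 with quantile normalization and 0.47 with the mean of probes. Array number and signal near background limit what could be seen. Of the 31 genes, 25 were bright enough to test and 21 were well above background on all 9 arrays. The alternatives "without Ctrl1 and Ctrl2" and "without M1 and M3" leave 1 array in a group, assumed to vary like the others.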
